A study of Saccharomyces cerevisiae with 73 samples.

Results

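CAT8 (YMR280C), ADR1 (YDR216W), SIP4 (YJL089W), HAP4 (YKL109W), ISF1 (YMR081C), MBR1 (YKL093W) and MTH1 (YDR277C) are budding yeast genes that were followed here as regulators of growth on carbon sources other than glucose. They were chosen by gene symbol, 1 probe each, and are 7 of the 5538 named genes of the arrays. Their expression was measured as cells left dextrose (glucose) for ethanol or galactose, or stayed in dextrose while amino acids or inositol were taken away.

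When glucose is plentiful, yeast ferments it and keeps the genes of respiration, of ethanol, acetate and fatty acid use, and of glucose synthesis switched off. When glucose runs out, the protein kinase Snf1 becomes active, the repressor Mig1 leaves the nucleus, and transcription factors such as Adr1, Cat8, Sip4 and the HAP complex switch those genes on. Galactose is a fermentable sugar that represses these genes less than glucose does, whereas growth on ethanol needs both respiration and gluconeogenesis.

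The members have different roles in that switch. Hap4 is the regulated activation subunit of the HAP complex, which binds CCAAT boxes and drives genes of respiration. Adr1 is a zinc finger activator of alcohol dehydrogenase, peroxisomal and glycerol genes. Cat8 is a zinc cluster activator of gluconeogenic and glyoxylate cycle genes, and Sip4 is a zinc cluster protein that binds the same promoter element and whose own gene is activated by Cat8. Isf1 and Mbr1 are related proteins linked to mitochondrial biogenesis. Mth1 is not an activator of such genes: it works with the repressor Rgt1 to keep hexose transporter genes off when glucose is absent, so the name "activators" does not cover it.

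The strain was KCN118 (MATalpha ade2), a haploid wild type in the S288C background, and every culture carried the ade2 mutation. Cells had grown in complete dextrose medium with amino acids and inositol (t = 0), were filtered and washed, and were collected 15, 30, 60, 120 and 240 min after resuspension in 1 of 13 media. The dextrose media were SD (no amino acids, no inositol), SD+aa (all amino acids), SD+ino (inositol) and a pair with part of the amino acids, named SD+aa:LIVWHM+ino and SD+aa:ARNCQGKPSDEFTY+ino. The ethanol media were SEtOH, SEtOH+aa, SEtOH+ino and SEtOH+aa+ino, and the galactose media were Sgal, Sgal+aa, Sgal+ino and Sgal+aa+ino. Each medium was a single culture, and none in dextrose combined the full set of amino acids with inositol, so the amino acid comparison in dextrose rests on SD+aa alone on the supplemented side. The 73 two-colour arrays covered 65 combinations of medium and time, and 8 combinations had a repeat array that was averaged with its partner. For SD+ino at 240 min and Sgal+ino at 60 min, the labels give the repeat the same technical replicate number as its partner.

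All values are log2 ratios of shifted (Cy5) to t = 0 (Cy3) cells, so that 0 is the level before the shift and each unit is a factor of 2. This scale assumes that the deposited numbers are log10 ratios in that direction, which the sources used here do not state. With base 2, all values would be 3.32 times smaller, and with the opposite direction all signs would flip. Array medians lay between -0.17 and 0.06, and values ended at 6.64, the limit of the deposited scale. Tests between carbon sources used the 11 cultures that had either all amino acids or none in limma, with amino acids and inositol as further terms. P values were adjusted by the method of Benjamini and Hochberg over all genes, with a threshold of 0.05. "Early" is the mean of 15 and 30 min and "late" the mean of 120 and 240 min. In such bulk samples, fewer cells expressing a gene and less RNA per cell cannot be told apart. The galactose label was checked against the GAL genes, which galactose normally induces strongly. Over all times GAL1 (galactokinase) lay between 0.10 and 2.42 in the galactose cultures and between 0.37 and 1.43 in the ethanol cultures, and GAL10 between -1.07 and 0.94 and between -0.75 and 0.00. These ranges overlap, so the galactose cultures are described by their label, and whether the cells used the sugar was not tested.

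The culture Sgal+aa at 240 min differed from the other galactose cultures for genes reported here. Of 5267 genes 33.1% had their highest galactose value there, against 29.0% in Sgal+ino, 24.0% in Sgal+aa+ino and 13.9% in Sgal, and for several members and target genes it lay near the ethanol cultures. Its GAL1 value at that time was 1.63, within the 1.49 to 2.42 of the other galactose cultures and above the 0.94 to 1.31 of ethanol, while GAL7 and GAL2 did not separate the carbon sources. Whether that array carries the right label was not tested further. Late results between galactose and the other carbon sources are therefore also given without it, for the members and lists where a call or count depends on it.

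Late after the shift, all 7 members were higher in ethanol than in dextrose and all 7 were higher in galactose than in dextrose. The call of SIP4 in galactose was lost in 9 of 11 fits without 1 culture, among them that without Sgal+aa (0.40, limma adjusted p = 0.0775). It was also lost with the first arrays of the repeats (0.70, adjusted p = 0.0525) and at 240 min alone (0.85, adjusted p = 0.161). With culture as a random block (0.70, adjusted p = 0.248) and after quantile normalization (0.04, adjusted p = 0.874) SIP4 did not pass either. The background was 26.4% of 5332 genes higher in ethanol and 27.6% higher in galactose, while 34.8% and 36.3% were lower. The members' median difference was 2.13 for ethanol and 1.95 for galactose, against medians of -0.12 and -0.14 over all genes tested. Late levels against t = 0 gave the same count, 7 of 7 higher in ethanol (35% of all genes) and 7 of 7 in galactose (36.1% of all genes). In dextrose the members' fitted late levels, with amino acids and inositol at equal weights, lay between -0.25 and 0.26, and 0 of 7 differed from t = 0 in limma. No gene of the array did so (0%), although 1089 of all genes tested had an unadjusted p under 0.05. These tests against t = 0 include any dye effect, since no dyes were swapped, and that effect cancels between media.

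**Figure D1:**
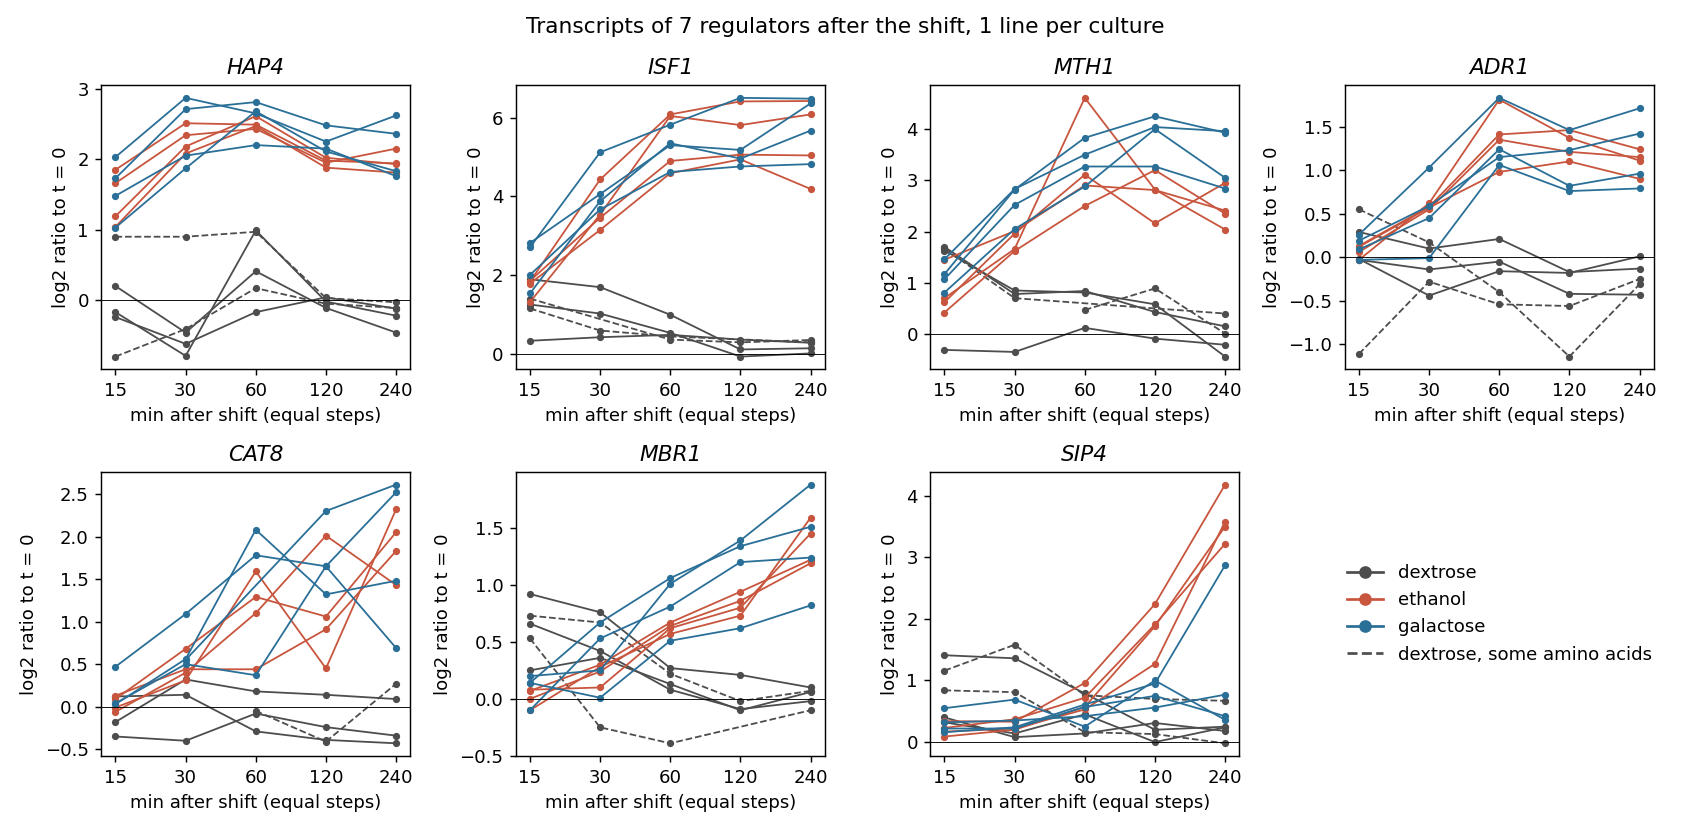
Log2 ratio to t = 0 of each member (y axis) against minutes after the shift (x axis, time points at equal steps), 1 line per culture, coloured by carbon source, with the partial amino acid media dashed. Ethanol and galactose cultures leave the dextrose cultures at different times in each panel, and SIP4 climbs above 3 at 240 min in the ethanol cultures and, among the galactose cultures, reaches 2.87 in Sgal+aa.

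**Figure D2:**
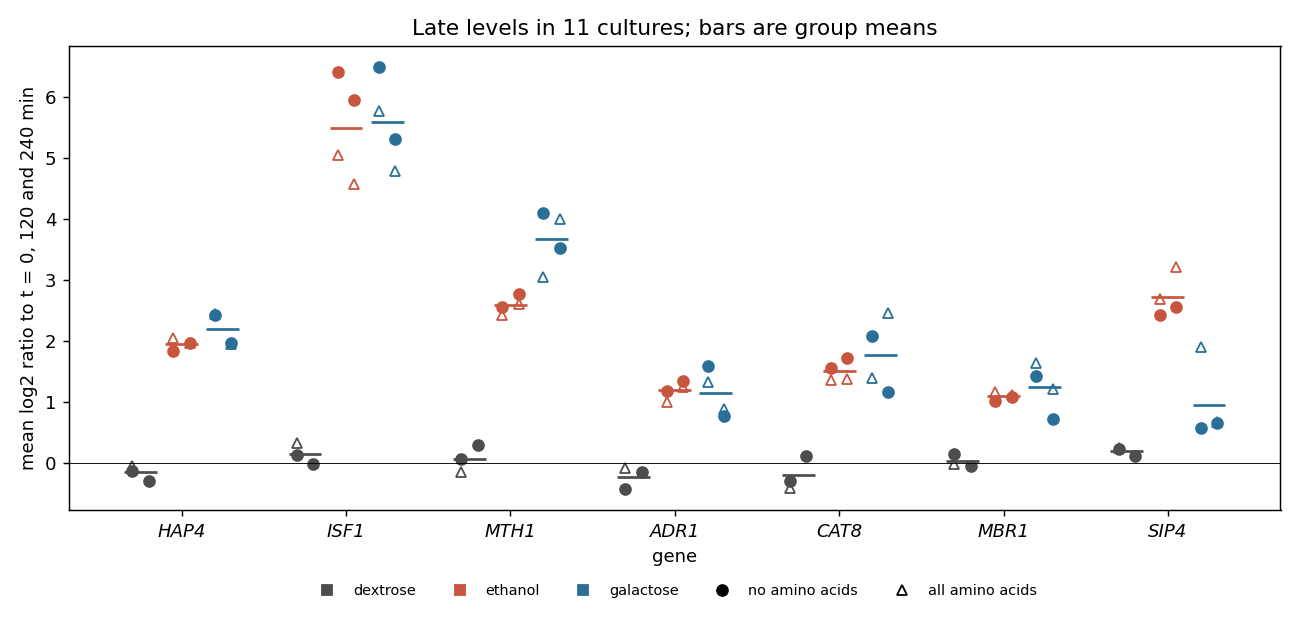
Late level (mean of 120 and 240 min, log2 ratio to t = 0) of each member in the cultures used in the test, grouped by carbon source, with bars at the group means. Filled circles are cultures without amino acids and open triangles those with all amino acids. SIP4 is the member whose galactose cultures lie below its ethanol cultures, and MTH1 the member whose galactose cultures lie above.

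HAP4 stood above dextrose from the first time point. At 15 min it stood at 1.04 in SEtOH, 1.66 in SEtOH+aa, 1.85 in SEtOH+aa+ino and 1.19 in SEtOH+ino. In galactose it stood at 1.73 in Sgal, 2.03 in Sgal+aa, 1.48 in Sgal+aa+ino and 1.03 in Sgal+ino. In dextrose it was -0.17 in SD, -0.24 in SD+aa, 0.20 in SD+ino, -0.80 in SD+aa:ARNCQGKPSDEFTY+ino and 0.90 in SD+aa:LIVWHM+ino. All 8 ethanol and galactose cultures thus lay above all 5 dextrose cultures at the first time point, the closest being Sgal+ino and SD+aa:LIVWHM+ino. HAP4 kept 1.81 to 2.15 in ethanol and 1.76 to 2.62 in galactose at 240 min, against -0.46 to -0.03 in dextrose. The early difference from dextrose was 2.18 ± 0.24 (SE) in ethanol (limma adjusted p = 0.00238) and 2.29 ± 0.24 in galactose (adjusted p = 0.00153). Late, the differences were 2.13 ± 0.15 (adjusted p = 5.71e-06) and 2.37 ± 0.15 (adjusted p = 1.9e-06).

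Early after the shift only HAP4 and ISF1 passed the test, 2 of 7 in ethanol (10.5% of 5448 genes were higher) and the same 2 in galactose (12.6%). ADR1 differed by 0.39 in either carbon source (limma adjusted p = 0.117 in ethanol and 0.111 in galactose). In fits without 1 culture its galactose difference ran from 0.24 to 0.58 (adjusted p 0.0465 to 0.381). Of those fits only the one without Sgal+ino passed (0.54). After quantile normalization ADR1 passed in ethanol (0.76, adjusted p = 0.0176) and in galactose (0.65, adjusted p = 0.0331). CAT8 differed by 0.54 ± 0.18 in galactose (adjusted p = 0.0524), and by 0.37 to 0.67 without 1 culture (adjusted p 0.00848 to 0.203). Of those fits CAT8 passed only without SD+aa (0.66). On all 11 cultures it passed with arrays centred on their medians (0.63, limma adjusted p = 0.0386) and after quantile normalization (0.67, adjusted p = 0.0253). It also passed with trend and robust settings (0.54, adjusted p = 0.0369) and with culture as a random block (0.51, adjusted p = 0.0254). MBR1 was on the other side, at -0.40 ± 0.13 in ethanol (adjusted p = 0.0581), and at -0.55 to -0.30 without 1 culture (adjusted p 0.00285 to 0.21). In galactose MBR1 was at -0.30 (adjusted p = 0.12), and at -0.44 to -0.19 without 1 culture (adjusted p 0.0101 to 0.279). At 15 min alone MBR1 was at -0.48 in galactose (limma adjusted p = 0.0342) and at -0.56 in ethanol (adjusted p = 0.023). With trend and robust settings it passed in ethanol (-0.40, adjusted p = 0.0494). Of the fits without 1 culture MBR1 passed only without SD+aa (-0.55 in ethanol and -0.44 in galactose). Without SD+aa the dextrose cultures left in the fit, SD and SD+ino, both lack amino acids. The values without SD+aa for CAT8 and MBR1 therefore cannot separate carbon source from amino acid removal in dextrose. MTH1 missed the threshold over the early mean (1.12 ± 0.39 in galactose, limma adjusted p = 0.0591). At 30 min alone it passed, by 1.42 in ethanol (adjusted p = 0.0264) and 2.16 in galactose (adjusted p = 0.00355). Over the early mean MTH1 passed in galactose with arrays centred on their medians (1.20, adjusted p = 0.0462). After quantile normalization it passed in ethanol (1.48, adjusted p = 0.00447) and in galactose (2.01, adjusted p = 0.000754). Ethanol and galactose did not differ early for any of the 7 in limma (0% of all genes passed, and 340 genes had an unadjusted p under 0.05).

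ADR1 passed the test from 60 min on. At that time it was 1.35 in SEtOH, 0.98 in SEtOH+aa, 1.81 in SEtOH+aa+ino and 1.41 in SEtOH+ino. In galactose it was 1.83 in Sgal, 1.15 in Sgal+aa, 1.24 in Sgal+aa+ino and 1.06 in Sgal+ino. In dextrose it lay between -0.54 and 0.21, with no overlap. The 60 min differences were 1.40 ± 0.24 in ethanol (limma adjusted p = 0.00316) and 1.33 ± 0.24 in galactose (adjusted p = 0.00294). They were about the same late, at 1.44 ± 0.21 (adjusted p = 0.000402) and 1.39 ± 0.21 (adjusted p = 0.000381).

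CAT8 was measured on 64 of the 73 arrays and passed the test late in both carbon sources. At 240 min it was 2.05 in SEtOH, 1.83 in SEtOH+aa, 2.32 in SEtOH+aa+ino and 1.43 in SEtOH+ino. In galactose it was 2.52 in Sgal, 1.48 in Sgal+aa, 2.61 in Sgal+aa+ino and 0.69 in Sgal+ino, against -0.43 to 0.27 in the 4 dextrose cultures with a value. Ethanol and galactose levels overlapped and both lay above dextrose. The late difference from dextrose was 1.68 ± 0.30 in ethanol (limma adjusted p = 0.001) and 1.95 ± 0.30 in galactose (adjusted p = 0.000369). At 60 min CAT8 had no value in Sgal+aa+ino and was left out of the fit. A fit that allowed 1 missing culture gave 1.17 ± 0.45 in ethanol (adjusted p = 0.0795) and 1.48 ± 0.49 in galactose (adjusted p = 0.0444).

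At 60 min 5 of the 6 members tested (all but SIP4) were higher than in dextrose, in ethanol (12.8% of 5191 genes) and in galactose (16.2%). MBR1 was the weakest of them in ethanol, at 0.49 ± 0.15 (limma adjusted p = 0.0316), and lost the call in 6 of 11 fits without 1 culture (0.43 to 0.54 and adjusted p 0.0175 to 0.102 over the 11 fits). SIP4 differed by 0.25 in ethanol and 0.02 in galactose. Between ethanol and galactose 0 of 6 members passed at 60 min in limma (1.93% of all genes), with differences from -0.22 to 0.23, and none of the 6 had an unadjusted p under 0.05.

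SIP4 passed the test only late, and was the member that was higher in ethanol than in galactose. At 120 min it was 1.27 in SEtOH, 1.88 in SEtOH+aa, 2.24 in SEtOH+aa+ino and 1.91 in SEtOH+ino, and at 240 min it was 3.58, 3.50, 4.18 and 3.22 in the same order. At 240 min it was 0.42 in Sgal, 2.87 in Sgal+aa, 0.36 in Sgal+aa+ino and 0.77 in Sgal+ino. The dextrose cultures lay between -0.02 and 0.67 at that time. All ethanol cultures were above all galactose cultures, and of the galactose cultures Sgal+aa was well above the dextrose range, Sgal+ino just above it and the other two within it.

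The late ethanol minus galactose difference of SIP4 was 1.76 ± 0.25 (95% interval 1.20 to 2.33, limma adjusted p = 0.00482), and 2.06 ± 0.17 (adjusted p = 0.000289) without Sgal+aa. It kept its call whichever culture was left out, with values from 1.55 to 2.06. In that comparison 2 of 7 members passed, SIP4 and MTH1, against 14.7% of all genes in either direction. The other 5 had intervals that reached at most 0.87 from 0: -0.87 to 0.33 for CAT8, -0.54 to 0.06 for HAP4, -0.38 to 0.48 for ADR1, -0.66 to 0.47 for ISF1 and -0.52 to 0.21 for MBR1. SIP4 was 2.46 ± 0.28 above dextrose late in ethanol (adjusted p = 9.28e-05). Its late difference between galactose and dextrose was only 0.70 ± 0.28 (adjusted p = 0.0478), and 0.40 (adjusted p = 0.0775) without Sgal+aa. That call was lost in 9 of 11 fits without 1 culture, all but those without SEtOH+aa+ino and Sgal+aa+ino. The galactose cultures outside Sgal+aa (0.58 to 0.68 late) were also below SD+aa:LIVWHM+ino (0.69), a dextrose culture that was not in the fit.

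Genes bound by Cat8 and Sip4 were mostly higher in ethanol than in galactose, as SIP4 was, while CAT8 did not pass that test. The list held 10 genes, 9 of them tested. Late in ethanol 8 were higher than in dextrose and 1, the cytosolic malate dehydrogenase gene MDH2, was lower (-1.74), with a list median of 2.72. Late in galactose 5 were higher and 1 lower (median 0.85), and without Sgal+aa 3 were higher and 1 lower (median 0.44). Directly between ethanol and galactose 7 were higher and 0 lower (median 1.92, against -0.04 over all genes, of which 7.63% were higher). Without Sgal+aa 8 were higher and 1 lower (median 2.47), and the share of all genes in that fit is not given. The count rested on the cultures used, and was 3 without Sgal and 4 without SEtOH, SEtOH+aa+ino, SEtOH+ino or Sgal+aa+ino.

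The isocitrate lyase gene ICL1, of the glyoxylate cycle, stood at 4.17 in SEtOH, 4.23 in SEtOH+aa, 5.25 in SEtOH+aa+ino and 3.72 in SEtOH+ino at 240 min. In galactose it stood at 0.88 in Sgal, 3.69 in Sgal+aa, 0.73 in Sgal+aa+ino and 0.48 in Sgal+ino. Sgal+aa was thus just under the lowest ethanol culture and the other galactose cultures were far below, as for SIP4. Late, ICL1 was 2.27 ± 0.41 higher in ethanol than in galactose (limma adjusted p = 0.0096). The acetyl-CoA synthetase gene ACS1 was 2.83 ± 0.40 higher (adjusted p = 0.0048), and the malate synthase gene MLS1 was 2.21 higher. The lactate transporter gene JEN1 was 2.03 higher, the carnitine acetyltransferase gene CAT2 1.92, and the gluconeogenic genes FBP1 1.26 and PCK1 1.25. All 7 of these genes kept the call without Sgal+aa, from 1.37 for FBP1 to 3.35 for ACS1, and MDH2 then passed as lower (-0.63). FBP1 and PCK1 lost their calls between galactose and dextrose without that culture (0.41 and 0.71). In Sgal+aa the 240 min list median was 3.69, against 1.37 in Sgal, 1.55 in Sgal+aa+ino and 0.89 in Sgal+ino. Of the 9 list genes with a value in all galactose cultures, 8 (88.9%) were highest in Sgal+aa, against 33.1% of all genes. Of the 7 members SIP4, HAP4 and MBR1 were highest there, and CAT8 was not. What set this culture apart was not tested, and it had no repeat array at that time point.

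**Figure D3:**
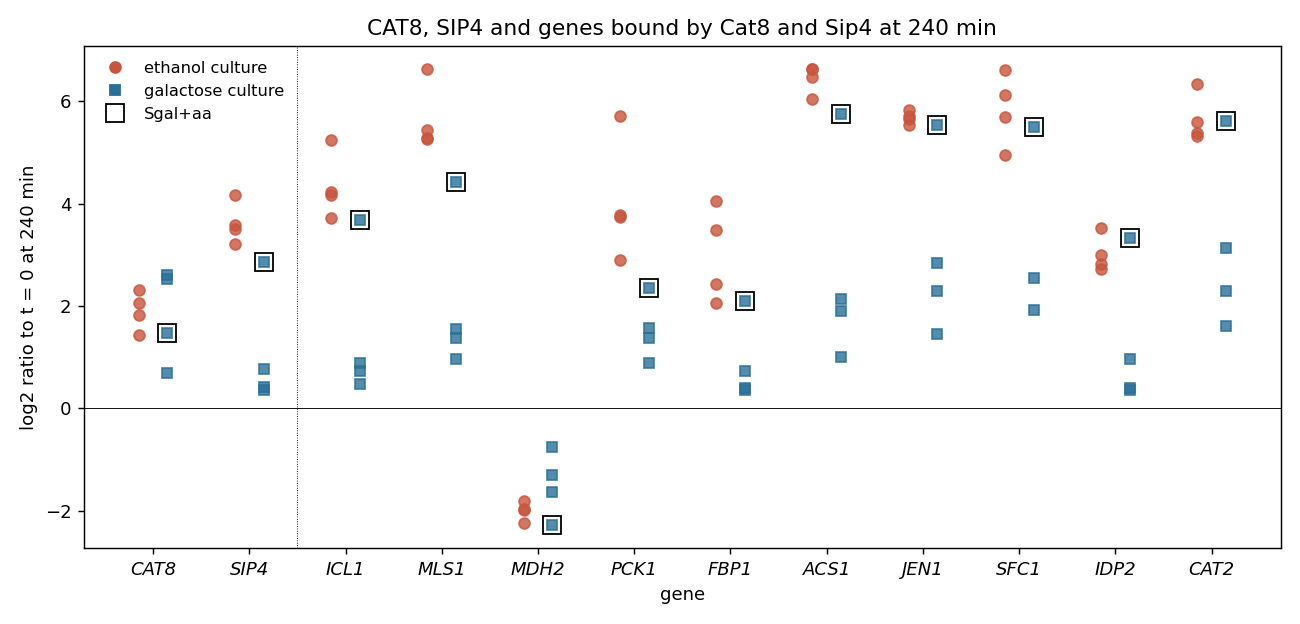
Values at 240 min (log2 ratio to t = 0) of CAT8, SIP4 and genes bound by both factors, 1 point per ethanol or galactose culture, with boxes round the Sgal+aa culture. Sgal+aa lies near the ethanol cultures for SIP4 and most target genes (ICL1 3.69 against 3.72 to 5.25 in ethanol), while the other galactose cultures lie lower.

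Most listed targets of Adr1 were higher in both carbon sources than in dextrose, and most listed targets of the HAP complex were higher in ethanol. Of 14 Adr1 targets, 12 were higher and 1 lower than in dextrose late in ethanol (median 2.21), and 10 were higher and 1 lower in galactose (median 1.59), or 10 and 2 without Sgal+aa (median 1.16). The acetate transporter gene ADY2 was higher by 5.35 in ethanol and 3.41 in galactose, the peroxisomal thiolase gene POT1 was higher by 4.12 in ethanol, and the putative ammonium transporter gene ATO3 was lower in ethanol (-0.90). Between ethanol and galactose 4 were higher, among them ADY2 (1.94) and the glycerol-3-phosphate dehydrogenase gene GUT2 (1.52), and 1 was lower, the peroxisomal catalase gene CTA1 (-1.46). Those 5 of 14 stand against 14.7% of all genes. The total fell to 3 without any of SD, SEtOH, SEtOH+aa, SEtOH+aa+ino, SEtOH+ino, Sgal or Sgal+aa+ino, and was 7 without Sgal+aa. For the fits without 1 culture the share of all genes is not given.

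Of 23 HAP complex targets, 17 were higher and 2 lower than in dextrose late in ethanol (median 1.24), and 11 were higher and 2 lower in galactose (median 0.82), or 10 and 4 without Sgal+aa (median 0.57). The background was 26.4% and 27.6% of all genes higher. The succinate dehydrogenase gene SDH1 was 2.54 higher in ethanol and the cytochrome bc1 subunit gene QCR8 2.25 higher. The exceptions in ethanol were the aconitase gene ACO1 (-2.17) and the haem synthesis gene HEM1 (-1.51). Between ethanol and galactose 3 passed: ATP1 (1.04) and KGD1 (0.90) were higher and the cytochrome c gene CYC1 (-1.19) was lower. That is 3 of 23, a share near the 14.7% of all genes. The count was 12 without Sgal+aa, 6 without SD+aa, 0 without Sgal, and 1 or 0 without any of the other ethanol and galactose cultures. The share of all genes in those fits is not given, so these counts were not set against a background. Of these 23 genes 19 (82.6%) were highest in Sgal+aa at 240 min.

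At 60 min and late ISF1 had the largest differences from dextrose of the members tested, while early those of HAP4 were as large or larger. In ethanol at 240 min it was 6.42 in SEtOH, 5.04 in SEtOH+aa, 4.19 in SEtOH+aa+ino and 6.08 in SEtOH+ino. In galactose it was 6.48 in Sgal, 6.36 in Sgal+aa, 4.82 in Sgal+aa+ino and 5.67 in Sgal+ino, against 0.02 to 0.36 in dextrose. Ethanol and galactose overlapped, and both lay over 3 units above dextrose. Several of these values are close to the limit of 6.64. The late differences from dextrose were 5.60 ± 0.28 in ethanol (limma adjusted p = 7.35e-07) and 5.69 ± 0.28 in galactose (adjusted p = 4.89e-07). Early they were 1.74 ± 0.28 (adjusted p = 0.00793) and 2.29 ± 0.28 (adjusted p = 0.00198). At 15 min alone the ethanol difference was 0.64 (adjusted p = 0.203), and the repeat arrays of SEtOH+ino differed there, at 1.84 and 0.81.

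Neither amino acids nor inositol moved ISF1 past the threshold late. In ethanol its late mean was 6.41 in SEtOH and 5.95 in SEtOH+ino, against 5.05 in SEtOH+aa and 4.57 in SEtOH+aa+ino, with no overlap (1.37 ± 0.26, limma adjusted p = 0.0751). In galactose it was 6.49 in Sgal and 5.32 in Sgal+ino, against 5.77 in Sgal+aa and 4.79 in Sgal+aa+ino, with overlap. Over all 11 cultures the difference for no minus all amino acids was 0.77 ± 0.22 (unadjusted p = 0.00596 in limma, adjusted p = 0.208), and for without minus with inositol it was 0.74 ± 0.22 (unadjusted p = 0.00766, adjusted p = 0.86). Of the 7 members 0 passed for amino acids late (0.394% of all genes passed), and 0 passed for inositol late (0%, with 146 genes at an unadjusted p under 0.05). The carbon source by amino acid interaction passed late for 0 of 7 as well (0.581% of all genes).

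MBR1, the relative of ISF1, was above dextrose at 240 min in every ethanol and galactose culture. At 240 min it was 1.19 in SEtOH, 1.59 in SEtOH+aa, 1.45 in SEtOH+aa+ino and 1.22 in SEtOH+ino. In galactose it was 1.51 in Sgal, 1.88 in Sgal+aa, 1.24 in Sgal+aa+ino and 0.82 in Sgal+ino, and in dextrose it lay between -0.10 and 0.10. Ethanol and galactose overlapped, and neither overlapped with dextrose. Late it was 1.08 ± 0.18 higher in ethanol (limma adjusted p = 0.000751) and 1.24 ± 0.18 in galactose (adjusted p = 0.000297). Levels of ISF1 and MBR1 were not set against each other, since they come from different probes.

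MTH1 was the only member that passed the test as higher in galactose than in ethanol. Late it was 2.56 in SEtOH, 2.43 in SEtOH+aa, 2.61 in SEtOH+aa+ino and 2.78 in SEtOH+ino. In galactose it was 4.09 in Sgal, 3.05 in Sgal+aa, 4.00 in Sgal+aa+ino and 3.53 in Sgal+ino, and in dextrose it lay between -0.15 and 0.45. The 3 carbon sources did not overlap, with Sgal+aa the galactose culture nearest to ethanol. Late MTH1 was 2.52 ± 0.22 above dextrose in ethanol (limma adjusted p = 2.34e-05) and 3.60 ± 0.22 in galactose (adjusted p = 1.75e-06). The ethanol minus galactose difference was -1.07 ± 0.20 (95% interval -1.52 to -0.62, adjusted p = 0.0119), and -1.25 (adjusted p = 0.00263) without Sgal+aa. The call was lost without SEtOH+ino (-1.06, adjusted p = 0.0538), at 240 min alone (-1.01, adjusted p = 0.053) and after quantile normalization (-0.65, adjusted p = 0.0877). At 60 min MTH1 was 2.74 ± 0.44 higher in ethanol than in dextrose (adjusted p = 0.00211). There the arrays of SEtOH+aa read 6.64, at the limit, and 2.58, and with the first set to missing the difference was 2.24 (adjusted p = 0.000484).

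The hexose transporter genes that Mth1 and Rgt1 repress went in both directions in ethanol. Of 4 tested, 3 were higher and 1 lower late in ethanol than in dextrose, and 3 were higher and 0 lower in galactose. HXT4 was higher by 2.31 in ethanol and 2.72 in galactose, and HXT2 by 1.19 and 2.95, while HXT1, for a low affinity transporter, was lower in ethanol (-1.07). HXT2 was the only one of the 4 to differ between ethanol and galactose (-1.77). The total of 4 calls against dextrose in ethanol fell to 2 without SD, SD+ino, SEtOH or SEtOH+ino. Of the genes of glucose sensing and repression, 4 of 12 were higher and 4 lower in ethanol (median -0.26), shares near those of all genes (26.4% higher and 34.8% lower). NRG1, for a repressor, was 2.61 higher, the glucose sensor gene SNF3 was 1.93 higher, and RGT1 was 1.31 higher. MIG2, for a repressor related to Mig1, was lower (-1.25). Late in galactose 5 were higher and 3 lower than in dextrose (median 0.07), with SNF3 at 2.80 and RGT1 at 1.86. Without Sgal+aa the lower call of TUP1, also on this list, was lost (-0.446, limma adjusted p = 0.0561). Between ethanol and galactose NRG1 was higher (1.34), while MIG1 (-1.21), SNF3 (-0.87) and STD1 (-0.73), for a paralog of Mth1, were lower. That count of 4 fell to 2 without SEtOH, SEtOH+ino or Sgal. Without Sgal+aa NRG2, on the same list, passed as lower too (-0.64, limma adjusted p = 0.0324).

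Among regulators upstream and beside the members, calls again went both ways. Of 11 genes of the Snf1 kinase and its regulators, 6 were higher and 3 lower late in ethanol than in dextrose (median 0.54), against 26.4% and 34.8% of all genes. REG2, for a phosphatase subunit, was 3.16 higher and SIP2, for a Snf1 complex subunit, 1.33 higher, while REG1 was lower (-0.80). In galactose 5 were higher and 2 lower (median -0.14), with REG2 at 2.64. Without Sgal+aa the higher call of GAL83, on the same list, was lost (0.48, limma adjusted p = 0.0503). SNF1 (0.68) and SAK1 (0.60), for a kinase that activates Snf1, were the 2 that were higher in ethanol than in galactose, a count of 0 without any of SEtOH, SEtOH+aa+ino, SEtOH+ino or Sgal. Without Sgal+aa it was 4, and the share of all genes in that fit is not given. The DNA-binding HAP subunit genes HAP2, HAP3 and HAP5 differed by -0.04, -0.29 and 0.01 between ethanol and dextrose, while HAP4 was 2.13 higher. In galactose HAP2 differed by 0.30 and HAP3 by -0.26, and HAP5 was 0.45 higher (limma adjusted p = 0.0486), a call lost without Sgal+aa (0.36, adjusted p = 0.115). Of the 10 HAP subunit and other activator genes, 3 were higher late in ethanol: USV1 (4.20), GSM1 (2.10) and the fatty acid regulator gene PIP2 (0.65), a share near that of all genes. ERT1, for a regulator of gluconeogenic genes, was lower (-1.22). In galactose 5 were higher and 1 lower, or 3 and 2 without Sgal+aa. Between ethanol and galactose USV1 alone differed (1.68), a count that was 0 to 2 when 1 culture was left out. Without Sgal+aa RDS2, on the same list, was also higher in ethanol (0.50, limma adjusted p = 0.028).

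The order of the members in time was described by when each culture first reached 50 percent of its own highest log2 ratio, for genes reaching 1 log2 unit. HAP4 did so at a median of 13.8 min in ethanol and 11.7 min in galactose. ISF1 followed at 22.7 and 19.0 min, MTH1 at 27.6 and 22.4 min, and ADR1 at 35.1 and 36.4 min. CAT8 came at 52.9 min in ethanol and 39.5 min in galactose, and MBR1 at 76.0 and 39.9 min. The galactose median of CAT8 leaves out Sgal+aa+ino, which had missing values. That of MBR1 leaves out Sgal+ino, where MBR1 reached only 0.82. SIP4 was last in ethanol, at 113.6 min, with cultures from 105.0 to 146.9 min. In galactose SIP4 reached 1 log2 unit only in Sgal+aa (150.5 min) and Sgal+aa+ino, whose flat course gave 13.6 min. In ethanol HAP4 (10.2 to 17.8 min) did not overlap with ISF1 (21.3 to 26.6 min), while MTH1 (15.1 to 36.5 min) overlapped with its neighbours. The 36.5 min came from SEtOH+aa, whose highest value, 4.61 at 60 min, averaged an array at the limit (6.64) with another at 2.58. The MTH1 median of 27.6 min includes that culture, and the time without the array at the limit is not given. CAT8 spread from 47.1 min to 121.1 min in SEtOH+aa, so CAT8, MBR1 and SIP4 overlapped. For listed targets, medians took only genes that reached 1 log2 unit in every culture of the carbon source. In ethanol the medians were 67.2 min (19 HAP targets), 127.5 min (11 Adr1 targets) and 128.7 min (9 genes bound by Cat8 and Sip4). In galactose the medians were 40.5 min (6 HAP targets), 71.8 min (8 Adr1 targets) and 69.7 min (3 genes bound by Cat8 and Sip4). The gene sets differ, so these medians cannot be compared between carbon sources. These times are interpolated between 5 time points and carry no test.

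**Figure D4:**
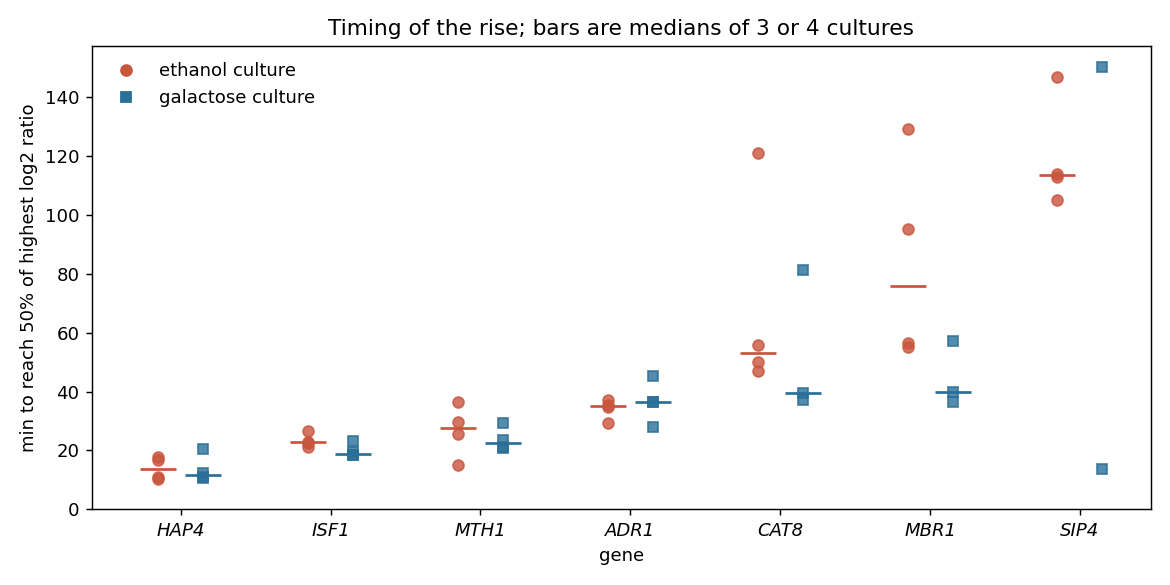
Minutes to 50 percent of the highest log2 ratio (y axis, linear) for each member (x axis), 1 point per ethanol or galactose culture, with a bar at the median where 3 or more cultures reached 1 log2 unit. HAP4 lies at 10.2 to 20.5 min, and SIP4 at 105.0 to 146.9 min in the ethanol cultures, where CAT8 (121.1) and MBR1 (129.3) in SEtOH+aa overlap with it.

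From 15 to 240 min within cultures, 6 of the 6 members tested rose in ethanol (31% of 5229 genes did) and 5 of 6 rose in galactose (32.5%). SIP4 rose by 3.41 ± 0.37 in ethanol, and its change in galactose was 0.79 ± 0.37 (limma adjusted p = 0.0795). That value was 0.15 (adjusted p = 0.604) without Sgal+aa and 1.32 (adjusted p = 0.0112) without Sgal+aa+ino. With arrays centred on their medians SIP4 passed in galactose (0.88, limma adjusted p = 0.048). HAP4 rose by 0.52 ± 0.14 in ethanol (adjusted p = 0.00824), most of its difference being present at 15 min, and without SEtOH+ino that call was lost (0.41, adjusted p = 0.0669). After quantile normalization, which gives all arrays the same spread, the HAP4 change was called in the other direction, at -1.52 in ethanol (adjusted p = 7.67e-05) and -1.50 in galactose (adjusted p = 0.000168). That setting also ended the calls of ISF1 (0.68, adjusted p = 0.113 in ethanol and 0.119 in galactose) and MTH1 (-0.13, adjusted p = 0.753, and 0.01, adjusted p = 0.979). With 1 missing culture allowed, CAT8 rose by 1.87 ± 0.24 in ethanol (adjusted p = 0.000144) and by 1.35 ± 0.29 in galactose (adjusted p = 0.00283). In these cultures the spread of all genes grew as well, from a median interquartile range of 0.36 at 15 min to 1.49 at 240 min in the ethanol cultures, and in galactose from 0.46 to 1.74.

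In dextrose ISF1 and MTH1 stood above t = 0 early in the media that lacked some or all amino acids. ISF1 was 1.90 in SD, 1.26 in SD+ino, 1.41 in SD+aa:ARNCQGKPSDEFTY+ino and 1.16 in SD+aa:LIVWHM+ino at 15 min, but 0.34 in SD+aa. MTH1 was 1.63 in SD, 1.70 in SD+ino and 1.67 in SD+aa:LIVWHM+ino, but -0.31 in SD+aa. SD+aa was the lowest dextrose culture for both genes, apart from the rest. By 240 min ISF1 lay between 0.02 and 0.36 and MTH1 between -0.44 and 0.40.

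The early difference between no and all amino acids within dextrose was 1.42 ± 0.25 for ISF1 (limma adjusted p = 0.00105) and 1.57 ± 0.30 for MTH1 (adjusted p = 0.00147). These were 2 of 7 members, against 26.9% of all genes, so the share was near the background. In ethanol the same contrast was 0.22 for ISF1 and -0.30 for MTH1, and in galactose 0.17 and -0.26. The interaction test, for a carbon source dependence of the amino acid effect, passed for ISF1 (adjusted p = 0.0204) and MTH1 (adjusted p = 0.00509), 2 of 7 members against 35.8% of all genes, a share below the background. ISF1 lost that call without SD (adjusted p = 0.0548) or SEtOH+ino (adjusted p = 0.0505). It also lost it with the first arrays of the repeats (0.066), with trend and robust settings (0.115), with culture as a random block (0.303), at 30 min alone (0.422) and after quantile normalization (0.521), all adjusted p from limma. MTH1 lost its call at 30 min alone (adjusted p = 0.0637). Everything in this contrast rests on the single culture SD+aa. When amino acids were taken to act alike in all carbon sources, 0 of 7 members passed early for amino acids (0%, with 385 genes at an unadjusted p under 0.05 in limma), and 0 of 7 for inositol (0%, 67 genes).

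SIP4 showed the early dextrose movement in only some cultures. At 15 min it was 1.41 in SD, 1.16 in SD+aa:LIVWHM+ino and 0.84 in SD+aa:ARNCQGKPSDEFTY+ino, but 0.40 in SD+aa and 0.32 in SD+ino. The last of these lacked amino acids and lay with SD+aa, so the high and low cultures did not divide by amino acids. Its early contrast for amino acids in dextrose was 0.60 ± 0.38 (limma adjusted p = 0.22). From 15 to 240 min in dextrose 2 of 6 members fell, against 16.5% of all genes: MBR1 fell by 0.53 ± 0.14 (limma adjusted p = 0.0182) and MTH1 fell by 1.22 ± 0.40 (adjusted p = 0.0406). The MBR1 call was lost without SD (-0.43, adjusted p = 0.111) or SD+ino (-0.68, adjusted p = 0.0502), and the MTH1 call in 7 of 11 fits without 1 culture (-2.15 to -0.72). ISF1 did not pass, at -1.18 ± 0.44 (limma adjusted p = 0.0629) in the fit that allowed 1 missing culture. Without SEtOH+ino it passed (-1.18, adjusted p = 0.0486). Without SD+aa ISF1 (-2.15, adjusted p = 0.00113) and HAP4 (-0.54, adjusted p = 0.0407) passed, but the dextrose cultures left then both lack amino acids. The spread of all genes shrank from 15 to 240 min in dextrose, from a median interquartile range of 1.16 to 0.39.

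**Figure D5:**
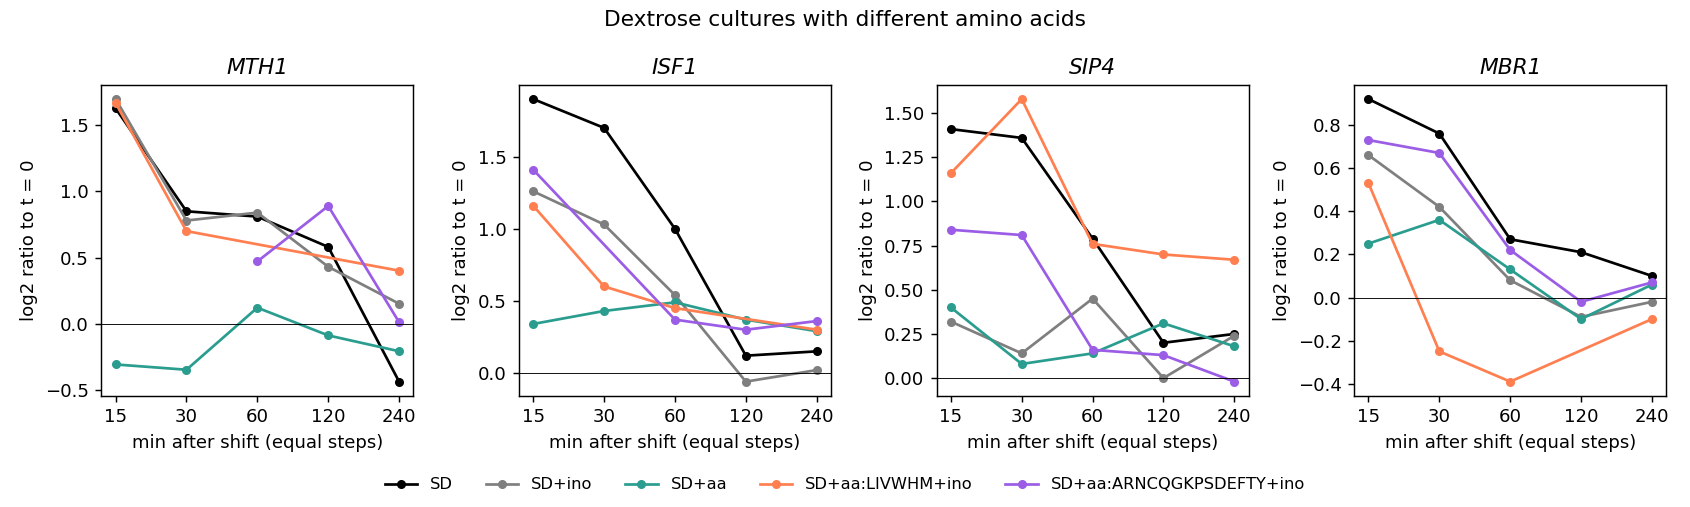
Log2 ratio to t = 0 of MTH1, ISF1, SIP4 and MBR1 (y axis, scaled per gene) against minutes after the shift (x axis, time points at equal steps) in the 5 dextrose cultures. SD+aa stays near 0 for ISF1 (0.34 at 15 min) and MTH1 (-0.31), while the cultures lacking some or all amino acids with a value start above 1 and come down.

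Across the medium and time combinations, for pairs of members Pearson's r ran from 0.238 for SIP4 with HAP4 (65 combinations) to 0.902 for ADR1 with ISF1 (63 combinations). SIP4 with CAT8 gave 0.512 over 56 combinations. These points share the t = 0 reference and their cultures, and the values are a description.

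Among all genes with at least 60 combinations, the 5 most like SIP4 were ACS1 (r = 0.939), CIT3 (0.927), CAT2 (0.916), PCK1 (0.899) and ICL1 (0.897). Those most like HAP4 were BTN2 (0.933), SSA4 (0.929), MGA1 (0.919), HSP30 (0.917) and HSP104 (0.916). For ISF1 they were YNL194C (0.953), MGA1 (0.952), RIM8 (0.951), YOR019W (0.950) and RGI1 (0.950). For ADR1 they were HXT6 (0.925), HXT7, YOR019W, SDS24 and YNL194C (0.914). HXT6 and HXT7 are nearly identical in sequence, and their probes cannot be taken as separate. For MTH1 they were PAL2 (0.950), PHR1 (0.947), SNF3 (0.937), YER079W (0.933) and RPN14 (0.928). For MBR1 they were ATO2 (0.936), URA10 (0.931), HXT15 (0.924), ATG34 (0.917) and PRR2 (0.913). CAT8 had too few values to be ranked.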

How the data were processed

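RNA from shifted cells (Cy5) and t = 0 cells (Cy3) was hybridized to whole-genome cDNA arrays, per the labels. From their limits at 2 and -2, the authors' deposited values were taken to be log10 ratios; base, direction and normalization are not given in the sources used here. Multiplication by 3.32 gave log2 ratios, with values at the limits kept, repeat arrays averaged and probes of the same gene averaged. Of 6256 probes 5568 had 1 gene symbol, giving 5538 genes; 2.56% of values were missing, and 4954 to 6254 probes had a value per array. Names came from an R64 gene table.

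The culture was the replicate, and with 1 culture per medium the residual spread comes from cultures of other media. The 11 cultures were fitted in limma 3.58.1 (R 4.3.3; lmFit, eBayes) with carbon source, amino acids and inositol as additive terms, for genes with a value in every culture, or with an interaction of carbon source and amino acids. P values were 2-sided and adjusted over all genes, and the scripts were tested on simulated data. The labels disagree on the wash (PBS or water), on which SEtOH+aa time points were repeated (the titles, 60 and 120 min, were followed) and on the partial amino acid media. The repeats of SD+ino at 240 min and Sgal+ino at 60 min were nearly identical to their partners (Pearson's r = 1.0 for each). Their titles carry the same technical replicate number as the partner, with the tag ojgrid added. By label they are thus not separate technical replicates. The number of arrays limits the precision.

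The members, lists and tests were chosen with earlier results of these data known. All 7 members are named, up to 3 genes per list with the largest late differences past the threshold, others where a sentence turns on them (the GAL genes after their values were seen), and the 5 genes most like each member. The contrast of amino acids within a carbon source and the fits allowing 1 missing culture were added after seeing the data. Promoter motifs were not searched.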

Additional observations from a re-analysis of the deposited data

Results flagged for a closer look

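ISF1 at 60 min in dextrose was 1.00 in SD, far above the other dextrose cultures (0.37 to 0.54). MBR1 at 60 min in dextrose was -0.39 in SD+aa:LIVWHM+ino, far below the others (0.08 to 0.27). The early mean of MTH1 in dextrose was -0.33 in SD+aa, while the other 3 cultures with a value lay between 1.19 and 1.24. The late mean of SIP4 in galactose was 1.91 in Sgal+aa, against 0.58 to 0.68 in the others. These are 4 of 61 groups examined, and chance gives about 1 in 20.

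The early effect of amino acids depended on the carbon source for ISF1 (limma adjusted p = 0.0204) and MTH1 (limma adjusted p = 0.00509), with SD+aa as the single supplemented dextrose culture.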

How the results depend on the processing

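No paired analysis was possible because each medium was 1 culture and no label ties a culture to one in another medium. Changes from 15 to 240 min were taken within cultures. The counts of members called changed by over 1.5 times as follows. The share of all genes called under each setting is not given beside them. They therefore describe how stable the counts were, and not whether the members differed from other genes. After quantile normalization they were 4 for ethanol minus dextrose early, 5 for galactose minus dextrose early, 1 for the early interaction, 1 for amino acids in dextrose, 1 for ethanol minus galactose late, 4 for dextrose against t = 0 late, 1 for 240 minus 15 min in dextrose and 3 in galactose. With arrays centred on their medians they were 4 for galactose minus dextrose early and 1 for 240 minus 15 min in dextrose. The latter was also 1 with the first array of each repeat, with all 13 cultures and with genes valued on every array. The early interaction was 1 with the first arrays, with trend and robust settings and with time points fitted with culture as a random block, and 0 at 30 min alone. Ethanol minus galactose late was 1 at 240 min alone. Leaving out 1 culture gave 2 to 4 for galactose minus dextrose early, 1 to 3 for the interaction (not estimable without SD+aa), 2 to 4 for amino acids in dextrose, 1 to 2 for ethanol minus galactose late and 0 to 4 for 240 minus 15 min in dextrose.

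Signs reversed for values that had not passed the test: MTH1 ethanol minus dextrose early at 15 min alone (-0.25) and on leaving out a culture (-0.075 to 0.85), SIP4 ethanol minus dextrose (-0.67 to 0.011) and galactose minus dextrose (-0.57 to 0.11) early on leaving out a culture, and ethanol minus galactose late for ISF1 (0.21 at 120 min, -0.28 to 0.087 on leaving out a culture), ADR1 (-0.12 at 240 min, -0.091 to 0.21), CAT8 (0.085 at 240 min, -0.58 to 0.015) and MBR1 (0.0037 at 240 min). Quantile normalization, which forces arrays of unequal spread to 1 distribution, turned the called change of HAP4 from 15 to 240 min to -1.52 in ethanol (limma adjusted p = 7.67e-05) and -1.50 in galactose (adjusted p = 0.000168), and that of MTH1 in ethanol to -0.13. It also gave 0.04 for the late galactose minus dextrose value of SIP4 (adjusted p = 0.874). Among listed genes late it left 8 HAP targets higher and 2 lower in ethanol than in dextrose, and 6 higher and 3 lower in galactose than in dextrose (median -0.02). It left 2 genes bound by Cat8 and Sip4 higher and 1 lower in galactose than in dextrose, and 4 higher in ethanol than in galactose. The causes were not tested.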
